A study of Mus musculus with 2 samples.

Results

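Elavl2, Elavl3, Elavl4, Rbfox1, Rbfox2, Rbfox3 and Celf4 are 7 of the 31053 genes listed in single-cell RNA counts of the dentate gyrus of newborn mice. They were chosen by symbol, with their UMI counts (unique molecular identifiers, each standing for 1 captured transcript) by cell class and library already known, so their levels and their differences between libraries are given here as a description without a test. Each symbol matched 1 gene row. Over the cells kept, the 7 genes gave 97629 of 56970309 UMIs.

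The tissue was microdissected at postnatal day 2 (P2). A library labelled Kdm6b KO came from hGFAP-Cre;Kdm6bF/F mice, in which a Cre transgene under the human GFAP promoter recombines a floxed Kdm6b gene in radial glia and is passed on to the cells that descend from them. The control library came from littermates labelled WT, whose Cre and floxed allele status is not given in the sources used here. Each library pooled 2 animals, and there was 1 library per genotype, so every difference below is between these 2 libraries and has no replicate check. Kdm6b encodes a demethylase that removes the repressive methyl marks of histone H3 lysine 27.

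The 3 Elavl genes encode the neuronal Hu proteins, which bind U-rich and AU-rich stretches of transcripts, mostly in their 3′ ends, and affect their stability, translation and splicing. The Rbfox proteins bind a GCAUG element and set alternative exons in or out by where they bind. Rbfox3 is the antigen of the NeuN antibody, the usual stain for neurons. Celf4 belongs to the CELF family and binds transcripts of synaptic and channel proteins in excitatory neurons. In the newborn dentate gyrus, radial glia give rise to Eomes-positive intermediate progenitors, these to Prox1-positive neuroblasts, and these to granule neurons, while pyramidal neurons of the adjoining hippocampal fields are also taken up by the dissection.

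The control library held 2956 cells with a median of 7340 UMIs and the KO library 1936 cells with a median of 9243 UMIs. UMIs of Kdm6b were 1822 in the control library (57.9 CPM, counts per 1000000 UMIs) against 1461 (57.3 CPM) with the KO genotype. This sum held class differences in both directions. Control and KO levels were 42.95 and 34.88 CPM in cells named pyramidal neurons and 98.37 and 122.5 CPM in endothelial cells. Dividing progenitors had 71 and 14 UMIs (39.55 and 18.51 CPM), with narrowly overlapping intervals. Kdm6b UMIs are tags of the transcript's 3′ end. Whether they lie in the deleted part is not given in the sources used here, so they check nothing about the deletion. Cells with a Y-linked UMI and no Xist UMI made up 33.4% of control cells and 0% of KO cells, so genotype and sex were partly confounded. The libraries shared 9 barcodes, 6 of them among the cells kept. Of 26 clusters, 23 were named from marker genes ("-like" below) and 3 stayed unnamed. Clusters are called here by type and a leading gene. The intermediate progenitor-like cluster held 8 of 10 markers of that type and also 8 of 10 neuroblast markers. Its name rests on its 10 leading genes, of which 3 were intermediate progenitor and 1 a neuroblast marker. Intervals are exact 95% intervals that cover counting error only.

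For the genes in the RefSeq promoter table (GRCm38.p6), the window from 250 bases before to 50 bases after a transcription start was searched for 2 E-box sequences that bHLH factors of neuronal differentiation can bind, CAGCTG and CAGATG, on both strands. Windows are shown for Elavl4 and Rbfox3, the 2 genes lower in the KO library over all cells, each beside a paralogue that was not, Elavl3 and Rbfox1. Each is printed 5′ to 3′ on the gene's strand with the E-boxes in capitals.
Elavl4, chr4:110287462-110287761, minus strand: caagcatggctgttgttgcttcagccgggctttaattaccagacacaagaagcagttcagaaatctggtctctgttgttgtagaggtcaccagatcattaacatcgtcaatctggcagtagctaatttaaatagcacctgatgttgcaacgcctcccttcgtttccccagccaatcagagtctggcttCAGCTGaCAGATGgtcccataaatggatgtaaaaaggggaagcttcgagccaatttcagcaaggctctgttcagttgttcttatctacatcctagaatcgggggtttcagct
Elavl3, chr9:22051974-22052273, minus strand: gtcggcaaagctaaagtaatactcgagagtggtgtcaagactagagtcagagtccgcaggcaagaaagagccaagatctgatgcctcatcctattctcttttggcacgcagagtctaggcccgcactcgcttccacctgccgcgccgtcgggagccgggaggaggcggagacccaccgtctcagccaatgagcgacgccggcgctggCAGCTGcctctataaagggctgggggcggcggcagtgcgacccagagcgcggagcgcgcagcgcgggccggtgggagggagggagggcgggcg
Rbfox3, chr11:118760992-118761291, minus strand: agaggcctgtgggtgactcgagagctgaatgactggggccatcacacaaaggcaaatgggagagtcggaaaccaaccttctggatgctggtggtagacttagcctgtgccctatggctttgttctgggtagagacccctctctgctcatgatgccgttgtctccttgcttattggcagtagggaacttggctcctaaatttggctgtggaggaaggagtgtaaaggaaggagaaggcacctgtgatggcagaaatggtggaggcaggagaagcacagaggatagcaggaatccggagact
Rbfox1, chr16:7069585-7069884, plus strand: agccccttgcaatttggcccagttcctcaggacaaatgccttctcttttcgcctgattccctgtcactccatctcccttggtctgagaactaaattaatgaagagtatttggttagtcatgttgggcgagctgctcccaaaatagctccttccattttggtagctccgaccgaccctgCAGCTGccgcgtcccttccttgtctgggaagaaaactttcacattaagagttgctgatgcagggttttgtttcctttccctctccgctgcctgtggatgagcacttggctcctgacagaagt

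The Elavl4 window held 1 CAGCTG and 1 CAGATG with a single base between them. The Elavl3 and Rbfox1 windows held 1 CAGCTG each, and the Rbfox3 window neither sequence. Among all 32851 windows of this length in the table, 16.3% held CAGCTG, 17.2% CAGATG and 30.6% at least 1 of them. Elavl4 has 4 windows in the table and Rbfox1 has 2, and the one with the most matches was printed. Another, overlapping Elavl4 window holds the same pair, and chr4:110286785-110287084 held 1 CAGATG alone. The Elavl4 window over the annotated gene start, chr4:110351862-110352161, held neither sequence. Nor did the other Rbfox1 window, chr16:5884543-5884842. The printed Elavl4, Rbfox1 and Rbfox3 windows lie inside the annotated genes. Rbfox3 has 1 window in the table, so the region at its annotated gene start was not searched. The shares above are per window, so they give no background for the best of several windows. Elavl2 has 6 windows, of which 3 held a CAGCTG. A match is only a match of letters, and counts of 3′ ends do not show which start was used.

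The 7 genes were read mainly in cells of the neuronal line, and they came in at different stages. After each cell was thinned to 2000 UMIs, an Entpd2 radial glia-like cell of the control library held a UMI of 0.226 of the 7 genes on average (SD 0.493, 62 cells). The mean was 0.732 in the Tfap2c radial glia-like cluster (SD 1.05, 127 cells), 1.25 in the dividing Eomes cluster (SD 1.2, 163 cells) and 2.97 in the intermediate progenitor-like cluster (SD 1.21, 136 cells). It was 3.11 in neuroblast-like cells (SD 1.14, 361 cells) and 3.37 in pyramidal neuron-like cells (SD 1.22, 772 cells). In the KO library the means of these 6 groups were 0.173, 0.723, 1.10, 2.82, 2.94 and 3.23. Endothelial cells, which should lack most of these transcripts, held 0.148 and 0.147 of the genes in the 2 libraries. Mural cells of both libraries held 0.255 (55 cells), control fibroblasts 0.233 (30 cells) and control microglia 0.0571 (35 cells). The Entpd2 radial glia-like mean thus lay within the range of these non-neural cells. At the deposited depth the endothelial cells had a median of 22030 and 18290 UMIs and the neuroblast-like cells 3621 and 4778.

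**Figure D1:**
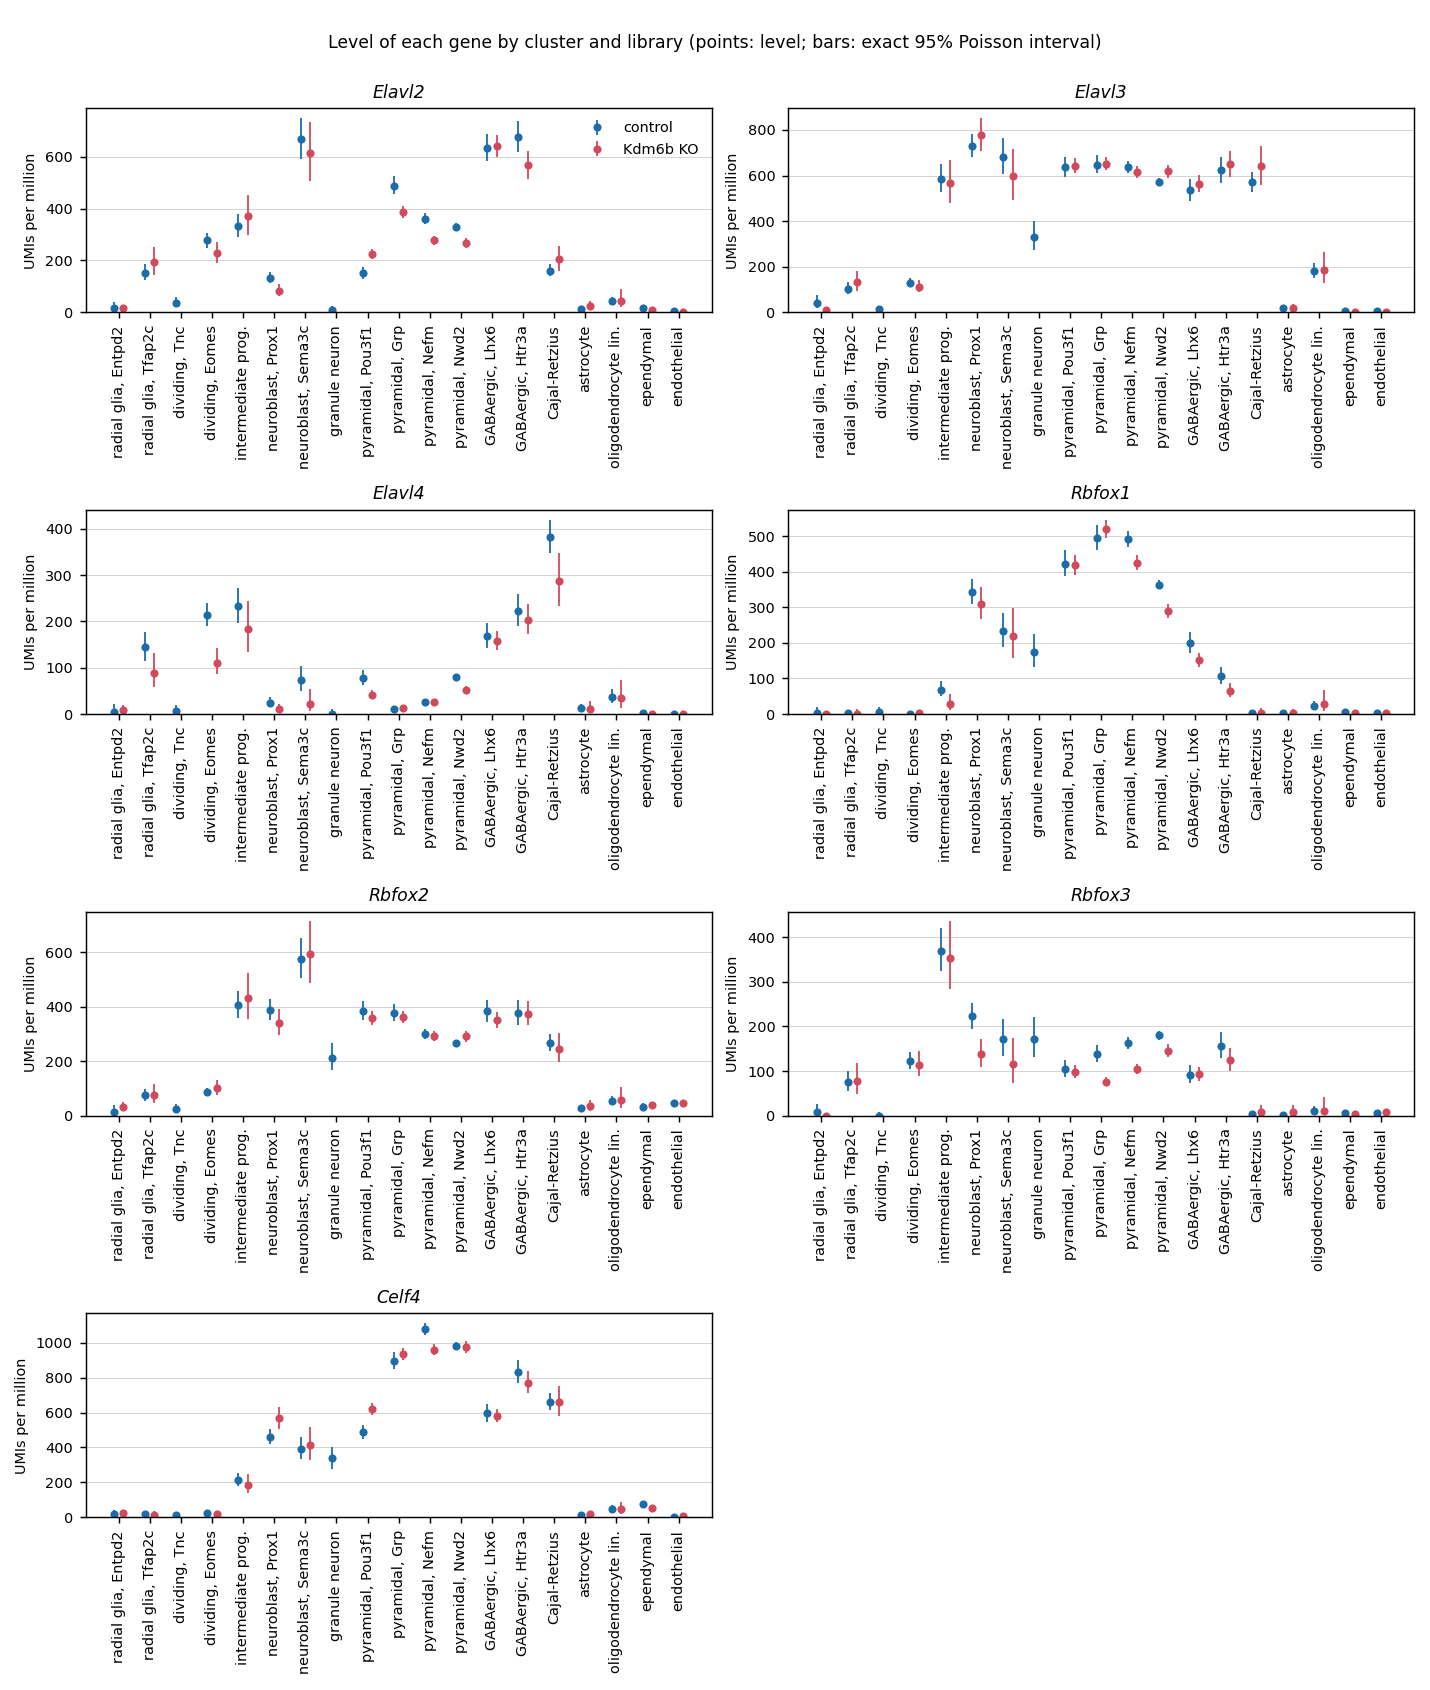
Level of each of the 7 genes (y axis, CPM of all UMIs of the cluster) by cluster (x axis, named by cell type and leading gene) in the control library (blue) and the Kdm6b KO library (red), with exact 95% Poisson intervals; points of under 20 cells are left out. In the control library Rbfox3 stands highest in the intermediate progenitor-like cluster, Elavl4 in Cajal-Retzius-like cells, and Rbfox1 and Celf4 in pyramidal neuron-like clusters.

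Among the Hu genes, Elavl4 stood higher in progenitors than in the neuroblasts and granule neurons of this line. Its control level was 3.80 CPM (1 UMI) in the Entpd2 radial glia-like cluster, 144 CPM in the Tfap2c radial glia-like cluster, 213 CPM in the dividing Eomes cluster and 232 CPM in the intermediate progenitor-like cluster. It was 24.6 CPM in the Prox1 neuroblast-like cluster and 73.1 CPM in the Sema3c neuroblast-like cluster, and no UMI was found among the 39 granule neuron-like cells of the control library, whose upper bound is 10.7 CPM. The levels of the dividing and the intermediate progenitor-like clusters had overlapping intervals (189 to 239 and 197 to 273 CPM). Pyramidal neuron-like clusters ranged from 11.2 CPM (Grp) to 80.1 CPM (Nwd2). Cajal-Retzius-like cells, an early-born transient neuron type, had the highest Elavl4 level, 382 CPM (347 to 419), and GABAergic neuron-like clusters 168 CPM (Lhx6) and 223 CPM (Htr3a).

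Within the progenitor clusters, the Elavl4 level was higher in cells that also held a UMI of Eomes, the T-box factor of intermediate progenitors; this split was chosen after the values were seen. In the Tfap2c radial glia-like cluster the 26 cells with an Eomes UMI after thinning, 14.9% of its cells in both libraries, had 408 CPM of Elavl4 (317 to 519) and the other 148 cells 61.6 CPM (44.6 to 83.0). Those 26 cells gave 60.9% of the cluster's Elavl4 UMIs. Elavl2 stood at 372 against 120.3 CPM, Elavl3 at 299 against 71.6 CPM and Rbfox3 at 195 against 48.7 CPM in the same split. Celf4 stood at 24.4 against 15.8 CPM, with overlapping intervals. Rbfox3 stood at 221 against 34.6 CPM in the control library. In the KO library it was at 106 CPM (29.0 to 272, 4 UMIs in 6 cells) against 76.4 CPM (45.3 to 121), with overlapping intervals. In the dividing Eomes cluster the 60 cells with an Eomes UMI had 347 CPM of Elavl4 and the other 161 cells 124 CPM, and those 60 cells gave 49.7% of that cluster's Elavl4 UMIs. The Entpd2 radial glia-like cluster held no cell with an Eomes UMI after thinning, 0 of 166.

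Elavl2, the Hu protein also known from the germ line, had a different order. Control levels were 152 CPM in the Tfap2c radial glia-like cluster, 277 CPM in the dividing Eomes cluster and 332 CPM in the intermediate progenitor-like cluster. The 2 neuroblast-like clusters split, with 132 CPM in the Prox1 cluster and 667 CPM in the Sema3c cluster, and the granule neuron-like cells had 3 UMIs (8.74 CPM, 1.80 to 25.5). Elavl2 was thus lower in Prox1 neuroblast-like and granule neuron-like cells than in the intermediate progenitor-like cluster. It was high in the Sema3c cluster, the Grp pyramidal cluster (489 CPM) and both GABAergic clusters (634 and 677 CPM). The low level was not particular to the Prox1 cluster: the Pou3f1 pyramidal cluster had 150.3 CPM and Cajal-Retzius-like cells 161 CPM. The Nwd2 and Nefm pyramidal clusters stood at 331 and 361 CPM. The Sema3c and both GABAergic levels had overlapping intervals.

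Elavl3 was the most even of the 3. It stood at 104 CPM in the Tfap2c radial glia-like cluster and 129 CPM in the dividing Eomes cluster, and then between 535 and 729.9 CPM in every named neuronal cluster of the control library from the intermediate progenitor-like stage on, except the granule neuron-like cells at 332 CPM (274 to 399). The highest level was in the Prox1 neuroblast-like cluster. Oligodendrocyte lineage-like cells held 182 CPM in the control library and 188 CPM in the KO library, against 4.67 and 1.84 CPM in endothelial cells.

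UMIs of 3′ ends do not scale with transcript length, but how well each gene's 3′ end was captured was not checked. Shares of a family's UMIs are therefore given to compare clusters, and are not shares of its transcripts. In the control library, Elavl4 made up 36.0% of Elavl UMIs in the Tfap2c radial glia-like cluster, 34.4% in the dividing Eomes cluster and 20.2% in the intermediate progenitor-like cluster. It made up 2.8% in the Prox1 neuroblast-like cluster, where Elavl3 made up 82.3%. Granule neuron-like cells had the most one-sided mix, 97.4% Elavl3 and 2.6% Elavl2. In Cajal-Retzius-like cells Elavl4 was at 34.3%, close to its share in progenitors, beside 51.3% Elavl3.

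**Figure D2:**
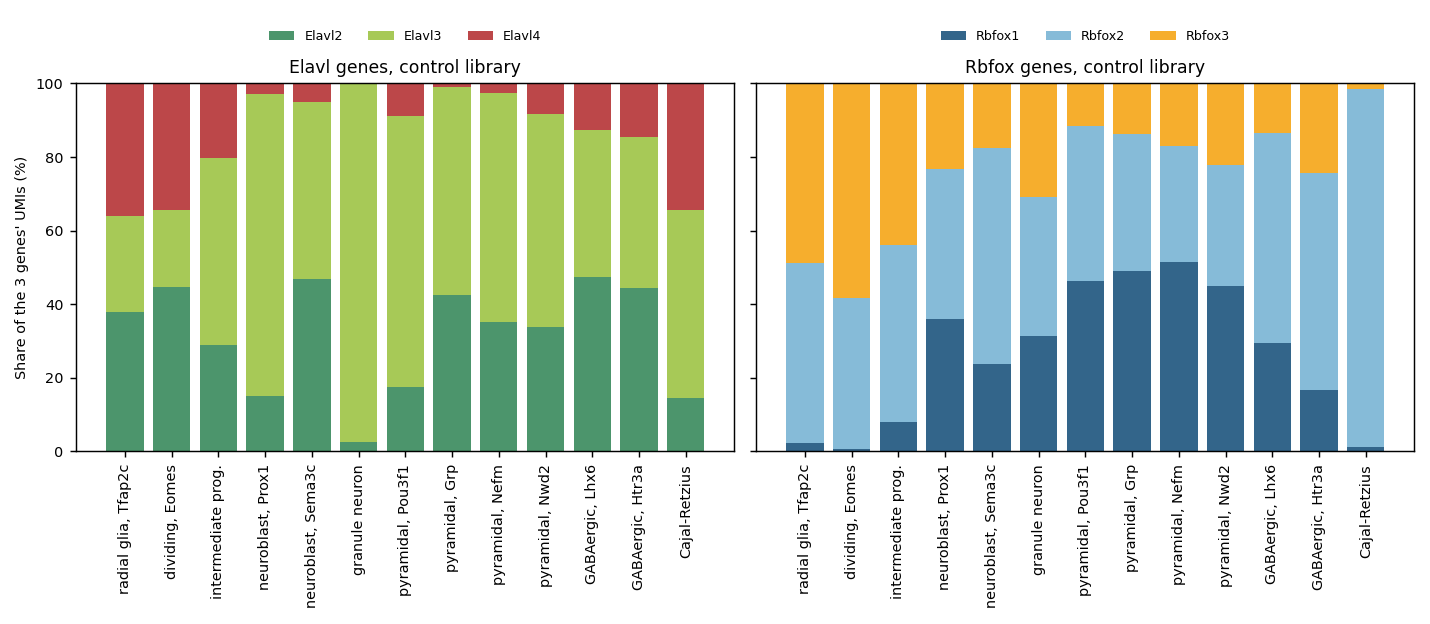
Share (y axis, percent) of each paralogue in the summed UMIs of the 3 Elavl genes (left) and the 3 Rbfox genes (right) by cluster (x axis) in the control library. Elavl4 is at 36.0% in Tfap2c radial glia-like cells and 2.8% in Prox1 neuroblast-like cells, and Rbfox1 at 2.2% and 36.0%.

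The Rbfox genes reached their highest levels at different stages. Rbfox3 was earliest: its control level was 74.6 CPM in the Tfap2c radial glia-like cluster, 122 CPM in the dividing Eomes cluster and 369.7 CPM (324 to 420) in the intermediate progenitor-like cluster, its highest level anywhere. It stood at 222 CPM in the Prox1 and 172 CPM in the Sema3c neuroblast-like cluster, 172 CPM in granule neuron-like cells and 105 to 180.0 CPM in pyramidal clusters. As a share of Rbfox UMIs, Rbfox3 went from 58.3% in the dividing Eomes cluster to 43.8%, 23.3% and 13.7% in the intermediate progenitor-like, Prox1 neuroblast-like and Grp pyramidal clusters. The transcript of the NeuN antigen thus stood higher in the intermediate progenitor-like cluster than in any pyramidal neuron-like cluster, with no overlap of intervals. That cluster held as many neuroblast as intermediate progenitor markers, so its cells need not all be progenitors.

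Rbfox1 was the last of the family. The control library held 2 UMIs of it in each of the Tfap2c radial glia-like and dividing Eomes clusters (3.31 and 1.48 CPM), at the endothelial level of 3.04 CPM. It stood at 68.6 CPM in the intermediate progenitor-like cluster, 344 CPM in the Prox1 neuroblast-like cluster and 364 to 496 CPM in pyramidal clusters, where the Grp and Nefm clusters had overlapping intervals. Granule neuron-like cells held 175 CPM (133 to 225), below the Prox1 neuroblast-like cluster. Its share of Rbfox UMIs was 0.7% in the dividing Eomes cluster, 8.1% in the intermediate progenitor-like cluster, 36.0% in the Prox1 neuroblast-like cluster and 51.5% in the Nefm pyramidal cluster. GABAergic clusters held less, 199 CPM (Lhx6) and 108 CPM (Htr3a).

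Rbfox2 was the widest. It reached 406 CPM in the intermediate progenitor-like cluster and 575 CPM in the Sema3c neuroblast-like cluster of the control library, and it was also read outside the neuronal line, at 45.3 CPM in endothelial cells and 129 CPM in fibroblasts. In Cajal-Retzius-like cells it gave 97.2% of Rbfox UMIs. Those cells held 4 UMIs of Rbfox1 (3.44 CPM) and 5 of Rbfox3 (4.29 CPM) in the control library. At the thinned depth 0 of 130 control cells had a Rbfox3 UMI, which allows a share of up to 2.31% at that depth, and 3.85% had one at the deposited depth. After thinning, 75.4% of these cells had a Celf4 UMI and 52.3% an Elavl4 UMI.

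Celf4 followed Rbfox1 in time but reached more neuron types. It stood at 18.2 CPM in the Tfap2c radial glia-like cluster, 22.9 CPM in the dividing Eomes cluster, 214 CPM in the intermediate progenitor-like cluster, 461 CPM in the Prox1 neuroblast-like cluster and 1077 CPM in the Nefm pyramidal cluster of the control library. That was the highest level of any of the 7 genes in a named cluster of the control library. Granule neuron-like cells held 338 CPM (279 to 405). Ependymal cells held 78.3 CPM, above the 5.14 CPM of endothelial cells.

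As patterns over the 22 clusters of at least 50 cells, with log2 CPM and 10 CPM added, Elavl2 and Elavl3 were the most alike pair of members (Pearson r = 0.920) and Elavl4 and Rbfox1 the least (r = 0.235). The gene most like each member over these clusters was Zc3h15 for Elavl2 (r = 0.939), Ap3b2 for Elavl3 (r = 0.983), Gadd45gip1 for Elavl4 (r = 0.884), Fam78b for Rbfox1 (r = 0.962), Tubb3 for Rbfox2 (r = 0.964), Rnf165 for Rbfox3 (r = 0.973) and Inpp4a for Celf4 (r = 0.981). The next 2 were Rufy3 and Pfdn4, Pdxp and Rtn2, Cadm3 and Clvs1, Ralyl and Fabp3, Klhl8 and Actl6b, Srrm4 and Prmt8, and L1cam and Shank1, in the same order of members. Srrm4, the splicing factor of neuronal microexons, reached r = 0.963 with Rbfox3. Clusters share libraries and depth, so these values describe the clusters and carry no p.

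Between the libraries, summed over all cells, Elavl4 and Rbfox3 were the 2 of 7 genes past 1.5-fold, both lower with the KO genotype, and none was higher. Elavl4 had 2323 control and 1039 KO UMIs (73.9 and 40.7 CPM), a log2 ratio of -0.86 with a ratio interval of 0.512 to 0.593. Rbfox3 had 3410 and 1837 UMIs (108 and 72.0 CPM), a log2 ratio of -0.59 (0.627 to 0.703). The log2 ratios of the other 5 genes lay between -0.12 (Elavl2) and 0.04 (Rbfox2). Of all 16093 genes with at least 20 UMIs, 5.52% were lower and 8.35% higher by this fold. The median log2 ratio was -0.05 over the members and 0.00 over all genes. These sums also hold the different mix of cells in the libraries, so the same ratios follow by class and by cluster. Because the members were chosen with both libraries in view, nothing is read from how the counts compare with the shares over all genes.

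In neuroblast-like cells 2 of 7 members, Elavl4 and Rbfox3, were lower by at least 1.5-fold, where 12% of all genes were. Elavl4 had 57 control and 10 KO UMIs (38.5 and 12.7 CPM; log2 ratio -1.54, interval 0.151 to 0.654). Rbfox3 had 308 and 104 UMIs (208 and 132 CPM; log2 ratio -0.65, interval 0.505 to 0.798). Celf4 leaned the other way, 442 and 530 CPM (log2 ratio 0.26, interval 1.06 to 1.36), and Elavl3 was at 0.04 (0.925 to 1.14). After thinning, 30.8% of 361 control and 21.9% of 146 KO neuroblast-like cells had a Rbfox3 UMI (intervals 26.0 to 35.8% and 15.5 to 29.5%), and 48.5% and 44.2% had one without thinning. The shares of endothelial cells with a Rbfox3 UMI were 1.10% and 1.76%. Under other settings Rbfox3 in this class fell short of 1.5-fold, at a log2 ratio of -0.46 with 4000 variable genes, -0.50 with doublets kept and -0.57 with KO UMIs drawn down to the control depth. Elavl4 fell short of it at clustering resolution 2, at -0.31.

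The Prox1 neuroblast-like cluster by itself had 235 and 82 UMIs of Rbfox3 (222 and 138 CPM; log2 ratio -0.68, interval 0.476 to 0.801) and 26 and 6 UMIs of Elavl4 (log2 ratio -1.20, interval 0.138 to 1.02, which holds 1). Elavl2 stood at 132 and 84.2 CPM there (log2 ratio -0.65, interval 0.450 to 0.883). Other markers moved with these values in the neuroblast-like class: the summed level of the 10 neuroblast markers was 11650 CPM in the control library and 9120 CPM in the KO library, that of the 10 intermediate progenitor markers 927 and 635 CPM, and that of the 16 granule neuron markers 999 and 1093 CPM. Their part in the result was not tested. The Cajal-Retzius markers Trp73, Lhx1, Lhx5, Ebf3 and Ndnf stood at 1.9 CPM or less in both neuroblast-like clusters of both libraries. Reln reached 7.07 CPM (3 UMIs) in the Sema3c cluster of the control library, against 3366 CPM in control Cajal-Retzius-like cells. Cacna2d2, Nhlh2 and Tbr1, also on that marker list, were not read here.

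In pyramidal neuron-like cells the same 2 of 7 members were lower, against 7.64% of all genes. Elavl4 had 793 and 365 UMIs (57.9 and 31.4 CPM; log2 ratio -0.88, interval 0.478 to 0.615), and Rbfox3 2247 and 1236 UMIs (164 and 106 CPM; log2 ratio -0.62, interval 0.605 to 0.696). The class was made of different clusters in the 2 libraries, with the Nwd2 cluster largest in the control library (335 of 807 cells, and 109 of 624 in the KO library) and the Grp cluster largest in the KO library (144 and 201 cells). A Mantel-Haenszel ratio stratified by cluster gave -0.53 for Elavl4 and -0.47 for Rbfox3, below 0 but short of 1.5-fold. The summed level of the 16 granule neuron markers was 778 and 256 CPM in this class, and its part in the result was not tested.

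The pyramidal clusters did not share 1 pattern. Elavl4 was lower in the Pou3f1 cluster, 93 and 86 UMIs (76.8 and 41.5 CPM; log2 ratio -0.89, interval 0.399 to 0.733), and in the Nwd2 cluster, 589 and 152 UMIs (80.1 and 52.0 CPM; log2 ratio -0.62, interval 0.539 to 0.776). It was at 26.4 and 25.1 CPM in the Nefm cluster and 11.2 and 12.2 CPM in the Grp cluster, and both intervals hold 1 (0.704 to 1.28 and 0.604 to 2.03). Rbfox3 had nearly the opposite order. It was at 138 and 76.4 CPM in the Grp cluster (log2 ratio -0.85, interval 0.458 to 0.668), 163 and 105 CPM in the Nefm cluster (log2 ratio -0.64, interval 0.562 to 0.733), 180.0 and 145 CPM in the Nwd2 cluster (log2 ratio -0.31, interval 0.722 to 0.901) and 105 and 98.5 CPM in the Pou3f1 cluster (log2 ratio -0.09, interval 0.749 to 1.18). The difference between clusters was not tested.

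**Figure D3:**
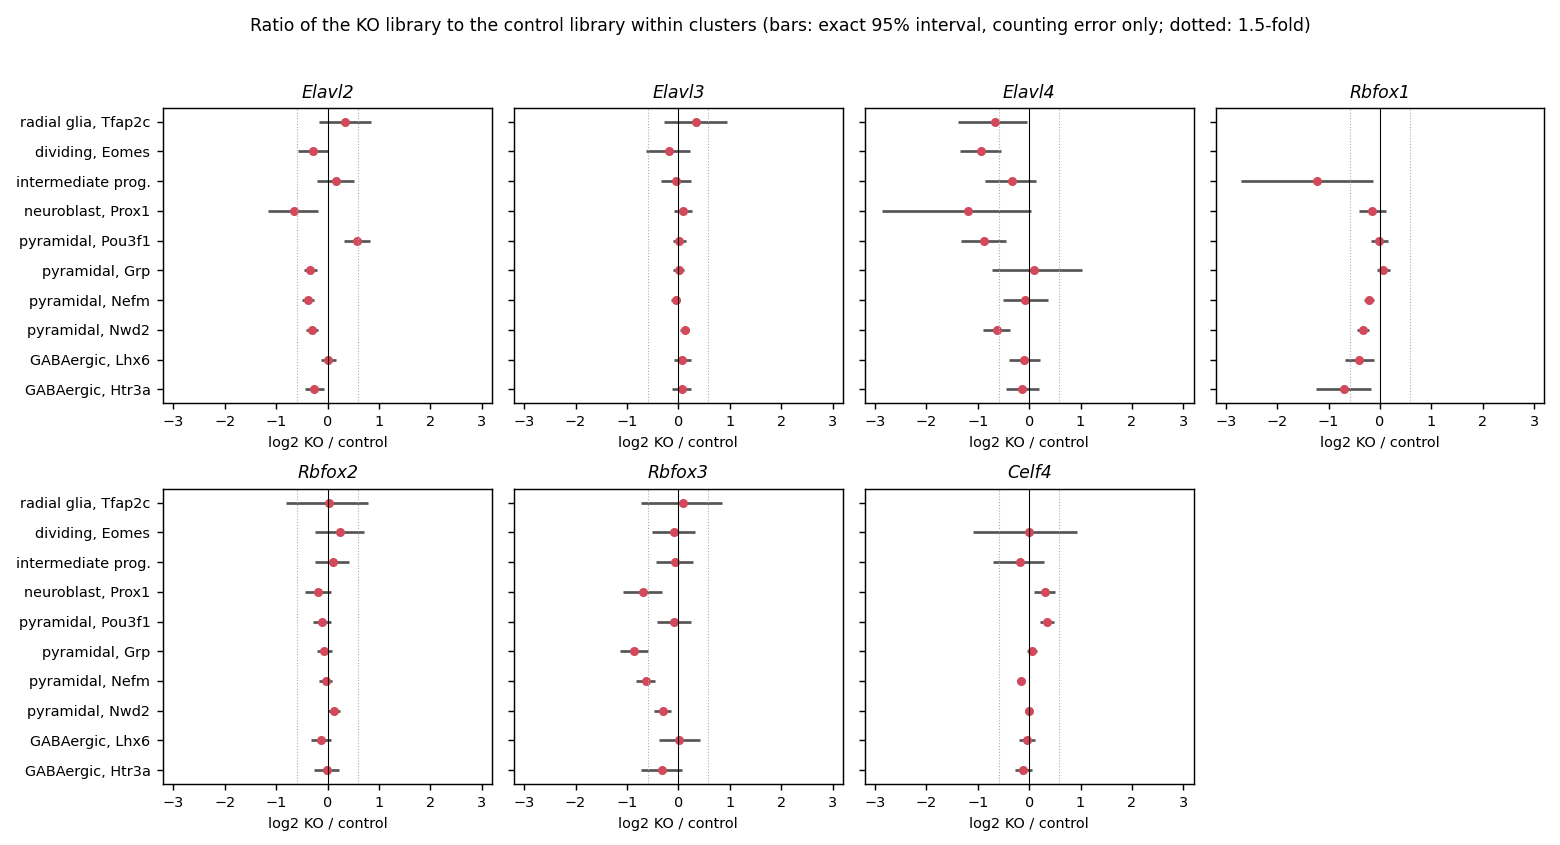
Log2 ratio of the KO to the control library (x axis) for each gene within 10 progenitor and neuron clusters of at least 50 cells per library (y axis), where the gene had at least 20 UMIs, with exact 95% intervals of counting error; dotted lines mark 1.5-fold. Elavl3 and Rbfox2 lie within 1.5-fold in these 10 clusters, Elavl4 is past it in the Tfap2c, dividing Eomes, Prox1 neuroblast-like, Pou3f1 and Nwd2 clusters, and Rbfox3 in the Prox1 neuroblast-like, Grp and Nefm clusters. The Entpd2 radial glia-like cluster is not drawn, and there Rbfox2 was higher in the KO library by more than 1.5-fold (4 and 23 UMIs).

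In intermediate progenitor-like cells 1 of 7 members was lower by at least 1.5-fold, Rbfox1, where 18.7% of all genes were. Rbfox1 had 44 and 7 UMIs (68.6 and 27.8 CPM; log2 ratio -1.22, interval 0.154 to 0.907), and 13.2% of 136 control and 10.2% of 49 KO cells held a UMI of it after thinning, with overlapping intervals. Rbfox3 was at 369.7 and 354 CPM (log2 ratio -0.06, interval 0.741 to 1.23) and Elavl4 at 232 and 183 CPM (log2 ratio -0.34, interval 0.552 to 1.10). The summed level of the intermediate progenitor markers was 3491 and 2949 CPM.

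In dividing progenitor-like cells 1 of 6 members with enough UMIs was lower, Elavl4, against 12.2% of all genes. It had 292 and 66 UMIs (163 and 87.2 CPM; log2 ratio -0.89, interval 0.404 to 0.703), while Rbfox3 was at 91.9 and 88.6 CPM (log2 ratio -0.05, interval 0.714 to 1.29). Nearly all of these UMIs came from the dividing Eomes cluster (289 and 65). Cells of that cluster with an Eomes UMI were 29.4% of the control cells and 20.7% of the KO cells after thinning, and the Elavl4 level was lower in the KO library on both sides of that split: 389 CPM (328 to 458) against 233 CPM (160 to 329) with an Eomes UMI, and 148 CPM (125 to 174) against 73.6 CPM (50.7 to 103) without.

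Radial glia-like cells counted 4 of 6 members lower, Elavl2, Elavl3, Elavl4 and Rbfox3, against 13% of all genes. The class held 138 Tfap2c and 66 Entpd2 cells in the control library and 52 and 118 in the KO library, and the clusters differ in level: Elavl4 stood at 3.80 CPM in the Entpd2 and 144 CPM in the Tfap2c cluster of the control library, and Elavl3 at 41.8 and 104 CPM. Within the Tfap2c cluster Elavl4 alone of these 4 was past 1.5-fold, with 87 and 25 UMIs (144 and 89.4 CPM; log2 ratio -0.67, interval 0.381 to 0.977). Elavl2 was there at 0.35 (0.888 to 1.79), Elavl3 at 0.35 (0.821 to 1.93) and Rbfox3 at 0.09 (0.603 to 1.79). Within the Entpd2 cluster all 4 had too few UMIs to be counted. Control and KO UMIs were 4 and 12 (Elavl2), 11 and 7 (Elavl3), 1 and 6 (Elavl4), and 2 and 0 (Rbfox3). Elavl3 was at 41.8 and 10.0 CPM in that cluster (interval 0.0787 to 0.676). Rbfox2 was higher by more than 1.5-fold in it, with 4 and 23 UMIs (interval 0.739 to 8.60, which holds 1).

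GABAergic neuron-like cells, whose precursors lie in the ventral forebrain, had 0 of 7 members past 1.5-fold. Of all genes there, 6.88% were lower and 6.85% higher. Elavl4 was at 193 and 173 CPM (log2 ratio -0.16, interval 0.773 to 1.04) and Rbfox3 at 120.5 and 104 CPM (log2 ratio -0.22, interval 0.711 to 1.04). Rbfox1 had the largest difference, 158 and 122 CPM (log2 ratio -0.37, interval 0.650 to 0.916), with 108 and 66.1 CPM in the Htr3a cluster (log2 ratio -0.70, interval 0.424 to 0.881). The summed level of the GABAergic markers was 4802 and 3917 CPM.

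Cells of the excitatory line were also set in 5 bins of 574 or 575 cells by the share of their UMIs in 30 other neuronal genes (such as Stmn2, Tubb3 and Snap25), so that the libraries could be compared at like neuronal content. Elavl4 was lower in the KO library in all 5 bins, with log2 ratios of -0.99, -1.10, -0.72, -0.93 and -0.60 and every interval below 1. Its control level peaked in the second bin, 216 CPM against 100.5 CPM in the KO library. Rbfox3 was also lower in all 5, at -0.54, -0.40, -0.22, -0.69 and -0.89, and its gap was widest in the most neuronal bin, 157 against 84.9 CPM. Celf4 went from 0.82 (28 and 36 UMIs), 0.44 and 0.38 in the first 3 bins to -0.08 and -0.17 in the last 2. Bins are ranges and not cell types: 61.2% of the first were radial glia-like, 51.6% of the second neuroblast-like and 99.8% of the fifth pyramidal neuron-like, and 68 to 612 cells lay within 10% of each upper limit. With 10 bins in place of 5, bin 5 had 42 and 42 UMIs of Elavl4 (log2 ratio -0.0005, interval 0.636 to 1.57). Rbfox3 was at -0.06 in that bin (0.772 to 1.19). Of the 10 bins, the Elavl4 intervals of bins 1 and 9 also held 1, as did the Rbfox3 intervals of bins 1, 2 and 3.

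**Figure D4:**
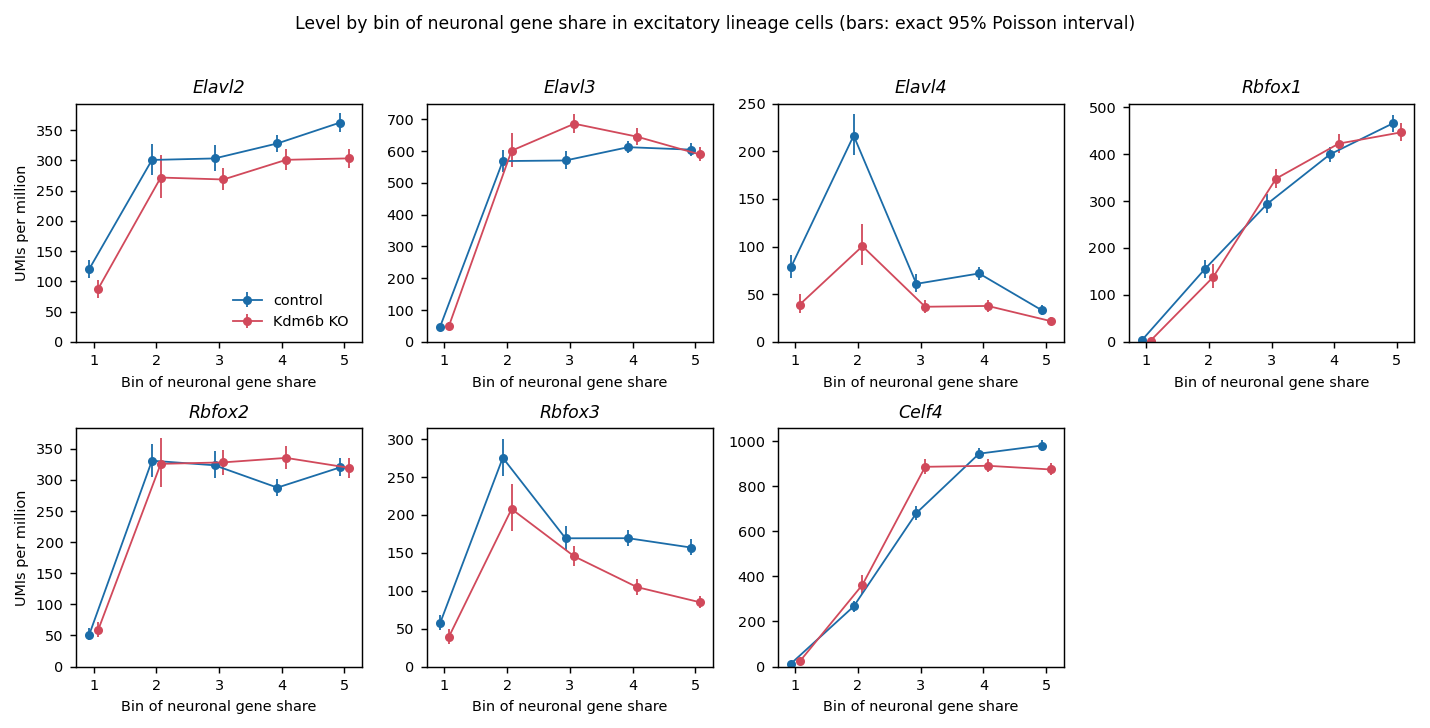
Level of each gene (y axis, CPM) over 5 bins of excitatory lineage cells ordered by neuronal gene share (x axis, bin 1 lowest) in the control (blue) and KO (red) libraries, with exact 95% Poisson intervals. The Elavl4 curve peaks at 216 CPM in bin 2 of the control library and at 100.5 CPM in the KO library, and the KO Rbfox3 curve lies below the control curve in all 5 bins.

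With only cells that had Xist and no Y-linked UMI kept in both libraries, the log2 ratios of Elavl4 were -1.58 in neuroblast-like, -0.83 in pyramidal neuron-like and -1.20 in dividing progenitor-like cells, and those of Rbfox3 -0.68 and -0.72 in the first 2. Elavl2 in neuroblast-like cells moved from -0.42 to -0.85 with that choice, and to -0.06 when only control cells with a Y-linked UMI and no Xist were set against all KO cells, an alternative chosen after seeing the data. With those control cells Elavl4 was at -1.58 in neuroblast-like, -0.99 in pyramidal neuron-like and -0.64 in dividing progenitor-like cells. Rbfox3 was at -0.74 in neuroblast-like cells and at -0.55 in pyramidal neuron-like cells, the latter short of 1.5-fold.

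A list of 54 other genes of RNA-binding proteins and their regulators was set against all genes in the same way. In neuroblast-like cells 3 of 43 with enough UMIs were higher by at least 1.5-fold and 2 lower, where 9.5% of all genes were higher and 12% lower (median log2 ratio -0.02, and -0.04 over all genes). In pyramidal neuron-like cells 4 of 51 were higher and 2 lower, against 5.67% and 7.64% of all genes (medians 0.05 and -0.03). In intermediate progenitor-like cells 5 of 37 were higher and 9 lower, against 9.58% and 18.7% (medians -0.13 and -0.05). In radial glia-like cells 2 of 38 were higher and 4 lower, against 12.9% and 13% (medians -0.16 and -0.05). Over all cells 0 of 53 passed that fold, where 8.35% of all genes were higher and 5.52% lower. Mbnl2, a splicing factor of maturing tissues, was higher in neuroblast-like cells (59 and 69 UMIs; log2 ratio 1.14, interval 1.54 to 3.18), and Fmr1, the fragile X protein, lower (161 and 56 UMIs; log2 ratio -0.60, interval 0.475 to 0.895). Among intermediate progenitor-like cells Msi2 was higher (28 and 34 UMIs; log2 ratio 1.62), and Srrm3 and Srrm4, which promote neuronal microexons, were lower (log2 ratios -1.13 and -0.70). In pyramidal neuron-like cells Khdrbs2 (208 and 384 UMIs; log2 ratio 1.12) and Igf2bp2 (14 and 34 UMIs; 1.49) were higher and Rbms3 lower (79 and 32 UMIs; -1.05). Radial glia-like cells had Rbms3 higher (8 and 25 UMIs; 1.41) and Srrm4 and Rbm24 lower (30 and 15 UMIs, and 22 and 11 UMIs), in a class whose clusters differ between the libraries.

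Related genes had other orders over the stages. Elavl1, the Hu protein of all tissues, was highest in progenitors, from 201 CPM in radial glia-like and 184 CPM in dividing cells to 55.9 CPM in pyramidal neuron-like cells of the control library, and held 108 CPM in endothelial cells. Celf2 stood at 389, 788, 846 and 931 CPM in radial glia-like, intermediate progenitor-like, neuroblast-like and pyramidal neuron-like cells, and Celf1 between 105 and 134 CPM. Ptbp1, the repressor of neuronal exons, stood at 97.0, 56.1, 31.1 and 9.42 CPM in the same order, and its neuronal paralogue Ptbp2 at 120.0, 167, 156 and 124 CPM. Qk, a glial splicing factor, stood at 541 CPM in radial glia-like and 27.9 CPM in pyramidal neuron-like cells, and Rest, the repressor of neuronal genes, at 62.3 and 2.70 CPM. Nova2 stood at 12.7 and 75.8 CPM and Nova1 at 16.2 and 2.85 CPM in these 2 classes. Between the libraries, Ptbp2 was lower in the KO library in radial glia-like (log2 ratio -0.87, interval 0.392 to 0.750) and intermediate progenitor-like cells (-0.62, 0.405 to 0.988), and Msi1, a progenitor RNA-binding protein, higher in both (0.74, 1.15 to 2.51, and 0.90, 1.09 to 3.14). The radial glia-like ratios of Ptbp2 and Msi1 also hold the different mix of Tfap2c and Entpd2 cells in the 2 libraries. They are not given by cluster here. Elavl1 in neuroblast-like cells was at -0.50 (0.510 to 0.954), within 1.5-fold.

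Positions in GRCm38 (GENCODE M21) are Elavl2 at chr4:91250763-91400785 and Elavl4 at chr4:110203722-110351909 on the minus strand, Elavl3 at chr9:22015005-22052023 on the minus strand, Rbfox1 at chr16:5885355-7411526 on the plus strand, Rbfox2 at chr15:77078990-77307004 and Rbfox3 at chr11:118489762-118911597 on the minus strand. Celf4 is ENSMUSG00000024268 in the files.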

How the data were processed

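Gene-by-barcode UMI counts from 10x Genomics 3′ libraries were deposited as whole numbers, not normalized, for 1 control and 1 Kdm6b KO library (33517318 and 26819750 UMIs). Per the submitters' processing notes, the tools were Cell Ranger 3.0.2 and Seurat 3 and the build mm10 (GRCm38); which step each served is not given there. Barcodes were dropped below 500 genes or 1000 UMIs or above 10% mitochondrial UMIs (leaving 3029 of 3555 and 1967 of 2292). Scrublet marked 4 and 7 barcodes (0.132% and 0.356%), which is not a working call; barcodes of highest score were therefore removed at a rate of 0.8% per 1000 (73 and 31). Cells were scaled to 10000 counts, log-transformed and clustered with scanpy 1.11.5 and leidenalg 0.10.2 (30 components, 15 neighbours, resolution 1) on 1993 variable genes. The 7 members, the 54 other genes, sex-linked genes and Kdm6b were left out of these, so they did not form the clusters.

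Clusters were named from 18 marker lists: at least 3 markers had to be detected in at least 10% of cells and 1.5-fold above the other clusters, and the type with most markers among the 10 leading genes gave the name. UMIs were summed per library and class. Levels are CPM with exact Poisson intervals. Ratios are KO over control with exact conditional binomial intervals, and log2 ratios have 0.5 UMI added to each sum. A gene was counted as past 1.5-fold with at least 20 UMIs over both libraries and classes of at least 50 cells per library. Shares of cells have Clopper-Pearson intervals after thinning to 2000 UMIs, which left out 204 and 157 shallower cells; a count of 0 allows up to 3 counts. With 1 library per genotype no p-value was computed. The ratio intervals were tested on simulated Poisson counts with planted fold changes. These had no spread between animals, cells or libraries, so the test covers counting error only. Named genes were all members, 10 other genes by name, and up to 3 per class with the largest log2 ratio whose interval leaves out 1. For likeness, genes with at least 300 UMIs were compared, without mitochondrial, ribosomal protein and predicted genes. The members, lists and tests were chosen with earlier results of these data known. edgeR 4.0.16 gave TMM scaling as an alternative only.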

Additional observations from a re-analysis of the deposited data

Results flagged for a closer look

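In 3 genes the clusters differed in direction between the libraries, with counting intervals on opposite sides of a ratio of 1. The difference between clusters was not tested, and with 1 library per genotype no sample can move against another. Elavl2 was higher in the KO library in the Pou3f1 pyramidal neuron-like cluster (log2 ratio 0.57; 150.3 and 224 CPM). It was lower in the Prox1 neuroblast-like cluster (-0.65), in the Nefm (-0.38), Grp (-0.33) and Nwd2 (-0.31) pyramidal neuron-like clusters, and in the Htr3a GABAergic neuron-like cluster (-0.25). Celf4 was higher in the Pou3f1 pyramidal neuron-like cluster (0.35) and the Prox1 neuroblast-like cluster (0.30), and lower in the Nefm pyramidal neuron-like cluster (-0.17) and in ependymal cells (-0.55). Elavl3 was slightly higher in the Nwd2 pyramidal neuron-like cluster (0.12) and lower in endothelial cells (-1.28), where it had 20 and 7 UMIs.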

How the results depend on the processing

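No paired analysis was possible because each genotype had 1 library, which also leaves no replicate to leave out. Elavl4 was below 0 in every alternative computed: 14 of 14 in neuroblast-like cells (-1.58 to -0.31) and 16 of 16 in pyramidal neuron-like cells (-1.03 to -0.53). Rbfox3 was below 0 in the same numbers (-0.88 to -0.46 and -0.80 to -0.47), and Rbfox1 in intermediate progenitor-like cells in 13 of 13 (-2.51 to -0.27). These numbers include the settings with another minimum of UMIs, which could not change a ratio or its sign. The count of members past 1.5-fold moved as follows. In radial glia-like cells it was 4, and 1 with a Mantel-Haenszel ratio over clusters, 2 with a looser filter, 1 at resolution 0.5 and 2 at resolution 2; Elavl2 reversed to 0.32 with the Mantel-Haenszel ratio. In dividing progenitor-like cells it was 1, and 2 with KO UMIs drawn down to the control depth or with only Y-linked control cells, an alternative chosen after seeing the data. In intermediate progenitor-like cells it was 1, and 2 with a looser filter, 0 at resolution 0.5 and 2 at resolution 2. In neuroblast-like cells it was 2, and 1 with 4000 variable genes, with KO UMIs drawn down and with doublets kept, where Rbfox3 was lost, and at resolution 2, where Elavl4 was. In pyramidal neuron-like cells it was 2, and 0 with the Mantel-Haenszel ratio and 1 with Y-linked control cells, where Rbfox3 was lost (-0.55). The cause was not tested. Of the other values, 594 member ratios kept within their interval and 28 moved, and 76 of 96 shares of cells moved with the depth of thinning. The 594 include the ratios under another minimum of UMIs, which could not move. No value could be given for radial glia-like and intermediate progenitor-like cells with Y-linked control cells, dividing cells at resolution 2, intermediate progenitor-like cells with the stricter filter or by cluster, and neuroblast-like cells with the looser and stricter filters, where a class had under 50 cells in a library or a single cluster.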
